A study of Mus musculus with 16 samples.

Results

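The transcripts described here encode 10 core transcription factors of the pancreatic beta cell, namely Pdx1, Nkx6-1, Nkx2-2, Mafa, Neurod1, Pax6, Isl1, Foxa2, Rfx6 and Glis3. They were chosen by gene name from the 54146 genes of the deposited tables, and all 10 were among the 15204 genes tested. RNA was sequenced from whole islets of the 8 inbred strains that founded the Diversity Outbred (DO) mouse population, namely 129S1_SvImJ (129), A_J (AJ), C57BL/6J (B6), CAST_EiJ (CAST), NOD_ShiLtJ (NOD), NZO_HlLtJ (NZO), PWK_PhJ (PWK) and WSB_EiJ (WSB). Mice of both sexes were used at 26 weeks of age, and every group, the reference strains included, had been fed a high-fat diet, so no group shows the strains without it. The 91 libraries comprised 10 from 129 (5 female, 5 male), 14 from AJ (7 and 7), 18 from B6 (9 and 9), 14 from CAST (6 and 8), 10 from NOD (5 and 5), 4 from NZO (3 and 1), 5 from PWK (1 and 4) and 16 from WSB (9 and 7).

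A beta cell keeps its identity through a small circuit of such factors, which bind the insulin genes and one another's regulatory regions. Several of them act first in the embryonic pancreas and again in the adult islet, where losing one in mice commonly lowers insulin production or lets genes of other islet cell types be expressed. Because Pax6, Isl1, Neurod1, Nkx2-2, Foxa2 and Rfx6 are also used by other endocrine cells of the islet, a whole-islet level is a sum over cell types, and fewer cells of a type cannot be told apart from less RNA per cell.

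The homeodomain members include Pdx1, which drives pancreas formation and insulin transcription (chromosome 5, 147269959 to 147275848, plus strand, GRCm38 as in GENCODE M21). Nkx6-1, a repressor that keeps non-beta programmes silent, lies on the same chromosome at 101658139 to 101664996 on the minus strand. Nkx2-2, needed for beta cell formation, is at chromosome 2, 147177546 to 147194243, minus strand. Pax6, which activates hormone genes in all islet endocrine types, is at chromosome 2, 105668900 to 105697364, plus strand. Isl1, a LIM-homeodomain factor of endocrine differentiation, is at chromosome 13, 116298281 to 116309689, minus strand. Outside that class, Mafa, a basic leucine zipper activator of insulin in mature beta cells, is at chromosome 15, 75745490 to 75748228, minus strand. Neurod1, a basic helix-loop-helix factor that binds E-boxes of the insulin gene, is at chromosome 2, 79452521 to 79456751, minus strand. Foxa2, a forkhead factor able to open closed chromatin, is at chromosome 2, 148042877 to 148046969, minus strand. Rfx6, a winged-helix factor of endocrine development, is at chromosome 10, 51677756 to 51730432, plus strand. Glis3, a zinc finger activator of insulin, is at chromosome 19, 28258851 to 28680077, minus strand.

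Promoter sequence from RefSeq (GRCm38.p6) was matched to 9 of the 10 members, in 12 windows of 250 bases that end just before an annotated transcription start. The core homeodomain motif TAAT, read on both strands, was present in 7 of the 12 windows against 54.9% of 32851 mouse promoters of the same length. The E-box CANNTG, bound by factors of the Neurod1 class, was also in 7 of 12 against 66.2%. The forkhead motif TGTTTNC, read on both strands, was in 0 of 12 against 17.8%, which says only that these letters are not in these windows. Printed here 5′ to 3′ on the gene's strand are 4 windows without annotated exon bases, shown because Rfx6, Glis3 and Pax6 were among the members lowest in NOD and Foxa2 was the member that differed most between ranges of library numbers. Capitals mark every TAAT on either strand. The windows are the upstream Pax6 start at chr2:105668646-105668895 (plus strand), a Foxa2 start at chr2:148045465-148045714 (minus strand, inside the gene), an Rfx6 start at chr10:51685268-51685517 (plus strand, inside the gene) and the Glis3 start at chr19:28680078-28680327 (minus strand).
Pax6: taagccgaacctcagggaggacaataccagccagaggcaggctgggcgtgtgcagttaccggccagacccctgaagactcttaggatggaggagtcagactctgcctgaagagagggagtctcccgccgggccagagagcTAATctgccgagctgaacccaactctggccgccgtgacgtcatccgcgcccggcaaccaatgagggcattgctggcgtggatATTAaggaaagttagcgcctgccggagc
Foxa2: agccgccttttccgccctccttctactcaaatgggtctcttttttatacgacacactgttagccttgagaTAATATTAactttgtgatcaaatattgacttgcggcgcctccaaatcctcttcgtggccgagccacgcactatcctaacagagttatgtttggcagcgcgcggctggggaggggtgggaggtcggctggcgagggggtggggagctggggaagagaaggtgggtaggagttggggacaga
Rfx6: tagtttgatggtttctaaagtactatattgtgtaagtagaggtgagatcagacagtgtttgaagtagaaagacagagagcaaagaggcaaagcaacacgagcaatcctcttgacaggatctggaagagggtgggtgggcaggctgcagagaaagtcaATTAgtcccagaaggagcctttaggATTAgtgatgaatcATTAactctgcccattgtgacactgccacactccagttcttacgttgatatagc
Glis3: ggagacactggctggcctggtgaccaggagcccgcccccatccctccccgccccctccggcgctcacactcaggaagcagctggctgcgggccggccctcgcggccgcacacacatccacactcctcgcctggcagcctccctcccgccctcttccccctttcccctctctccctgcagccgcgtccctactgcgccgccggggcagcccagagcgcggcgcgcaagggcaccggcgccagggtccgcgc
The Pax6 window held 2 TAAT sites, the Foxa2 window 2 that lie next to each other, the Rfx6 window 3 and the Glis3 window 0. The GC content of the 12 windows ran from 44% to 75.6% against a median of 52.4% over all promoters, with the Rfx6 window lowest and the Glis3 window highest.

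The libraries held 16928552 to 35196145 expected counts (median 27485367), and 3 counts, the limit that a count of 0 allows, corresponded to 0.0852 to 0.177 CPM (counts scaled to library size). The members were far above that limit, from 506 expected counts in the lowest Foxa2 library to 20749 in the highest Mafa library. Islet identity was plain in every strain, since insulin (Ins2) averaged 230336 TPM in PWK to 436143 TPM in AJ. In 12 libraries (6 of 129, 2 of NOD and 4 of WSB), sex-linked transcripts were opposite to the labelled sex. Library numbers fell into 3 ranges, with AJ, B6, CAST and WSB in both 1 to 32 and 34 to 65. The libraries of 129, NOD, NZO and PWK were only in 66 to 100, so that for these strains range and strain cannot be told apart. Each contrast of a strain with the mean of the others therefore also mixes ranges. The labels do not tie each library to a mouse, and p-values therefore measure the spread between libraries.

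On the TPM scale, which divides by transcript length and so allows genes to be compared, 3 members were close together at the top. Pax6 averaged 172 ± 44.1 TPM (SD, n = 91), Nkx6-1 168 ± 42.6 TPM and Mafa 165 ± 46.7 TPM. Which of them led depended on the library, with Pax6 highest in 39 libraries, Mafa in 33 and Nkx6-1 in 19. Mafa led in 10 of 10 NOD libraries and in 0 of 4 NZO libraries, while Nkx6-1 led in 4 of 5 PWK libraries and 11 of 18 B6 libraries. Nkx2-2 (105 ± 28.2 TPM), Neurod1 (98.8 ± 27.5 TPM), Pdx1 (76.8 ± 25.1 TPM) and Isl1 (73.0 ± 23.4 TPM) formed a middle range. Rfx6 (42.5 ± 14.5 TPM), Foxa2 (35.4 ± 14.5 TPM) and Glis3 (17.2 ± 5.09 TPM) were the lowest. Glis3 was the lowest member in 81 libraries and Foxa2 in the other 10. Even Glis3 exceeded 80.1% of protein-coding genes by mean TPM, and Pax6 exceeded 98.7%.

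**Figure D1:**
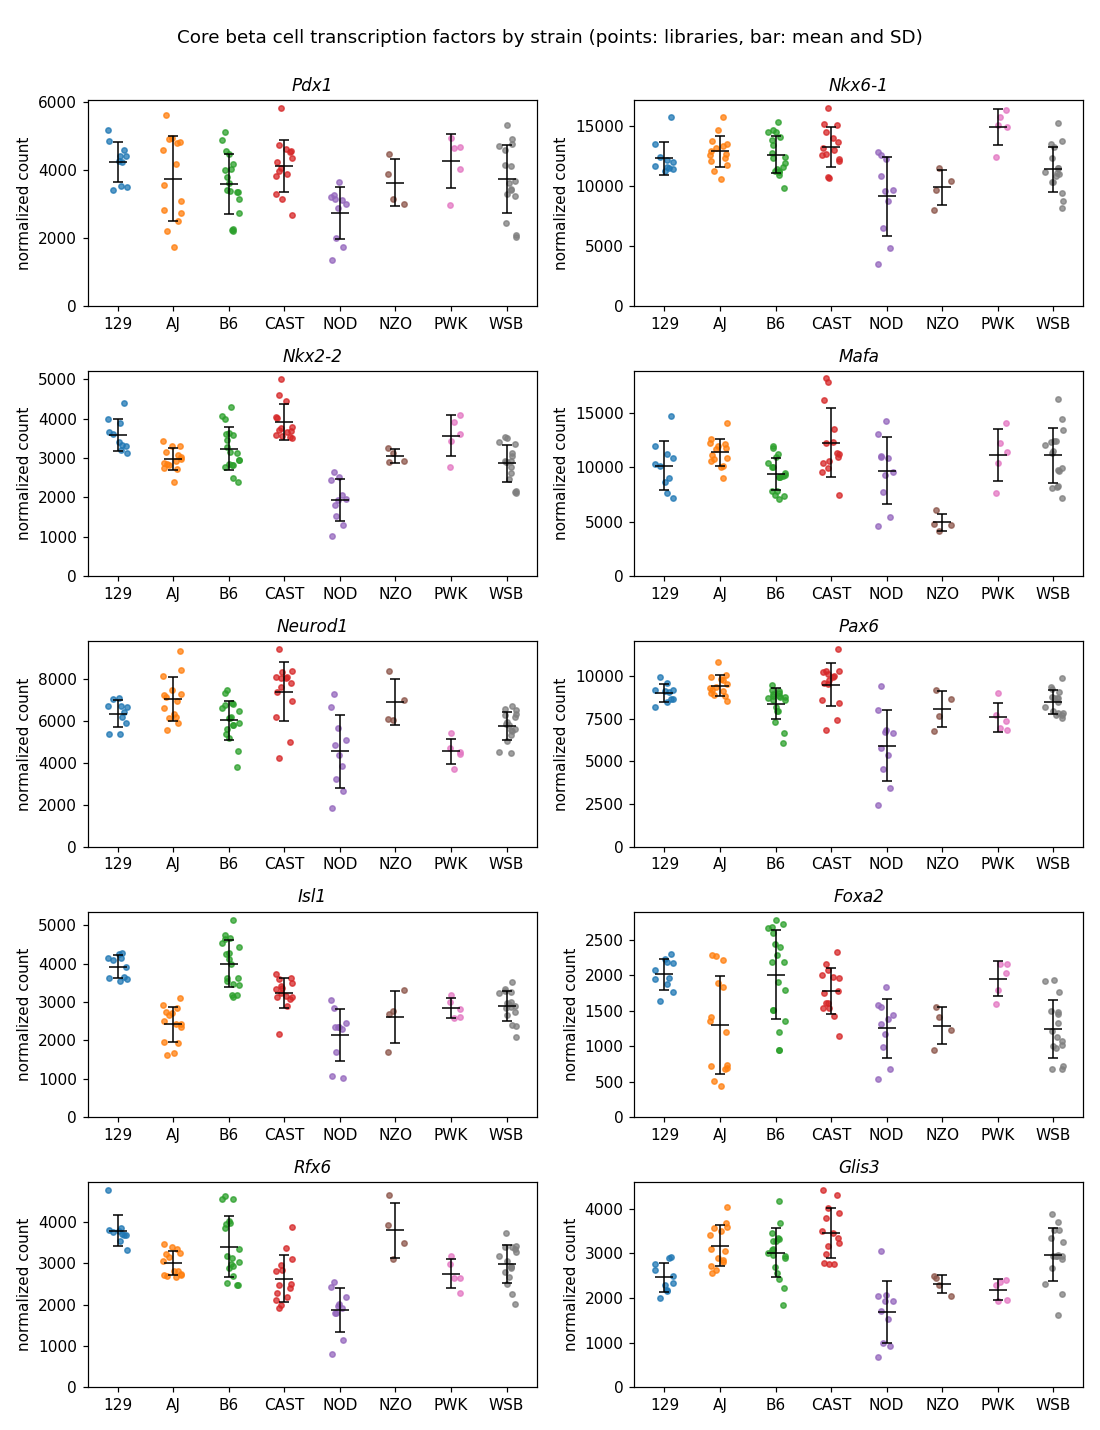
Normalized count of each of the 10 factors (y axis, 1 panel per factor) in the 91 islet libraries by strain (x axis), with points for libraries and bars for mean and SD. Mafa in NZO (4155 to 6063) and Nkx2-2 in NOD (1029 to 2642) lie low in their panels, and the wide spread of Foxa2 in AJ runs from 441 to 2281.

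All further levels are normalized counts, that is expected counts divided by the relative effective library size, and are compared within a gene. Strain effects were tested by edgeR's quasi-likelihood method, and p-values were adjusted by the Benjamini-Hochberg procedure over all 15204 genes. All 10 members differed between strains, where 97.4% of all tested genes did, so this count is close to the background. The adjusted p-value was smallest for Nkx2-2 (4.42e-14) and Isl1 (1.15e-13) and largest for Pdx1 (0.0124). Strain accounted for 63.3% of the variance of log2 normalized counts for Nkx2-2, 59.7% for Isl1, 55.2% for Rfx6 and 54.6% for Glis3, against a median of 50.9% over all genes. Pax6 (49.2%), Neurod1 (42.8%), Mafa (42.2%), Nkx6-1 (38.9%), Foxa2 (33.5%) and Pdx1 (20.6%) were below that median. Pdx1 lost its strain call in edgeR without the NOD libraries (adjusted p = 0.514), without the NOD libraries of high immune counts (0.413), without the 12 libraries of opposite sex counts (0.162) and with immune and acinar marker sums as covariates (0.286), and Pax6 lost its call in the last of these (0.115). In AJ, B6, CAST and WSB alone Pdx1 (0.57) and Glis3 (0.116) were not called in edgeR.

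Over the 28 pairs of strains the members gave 124 calls of a possible 280, while 50.3% of all gene-pair tests were called. Isl1 differed in 17 pairs, Glis3 in 16, Neurod1 in 15, Nkx2-2 and Rfx6 in 14 each, Foxa2 in 12, Nkx6-1 in 11, Mafa in 10, Pax6 in 9 and Pdx1 in 6. Of the 70 member tests that involve each strain, NOD gave 56 calls where 61% of the tests over all genes were called, and the other strains gave fewer. CAST gave 33 (all genes 52.7%), PWK 29 (48.2%), 129 28 (48.4%), AJ 27 (51.3%), WSB 27 (51.7%), B6 25 (48%) and NZO 23 (40.8%). When the strains were ordered by mean, neighbours in the order seldom differed. Nkx6-1 had no neighbouring pair that differed and each other member had 1. That step was at the bottom of the order, above NOD, for Pdx1 (B6 over NOD, adjusted p = 0.0161), Nkx2-2 (WSB over NOD, 1.31e-07), Pax6 (PWK over NOD, 0.0118) and Rfx6 (CAST over NOD, 0.000104), and above NZO for Mafa (B6 over NZO, 1.58e-05). The highest strain mean exceeded the lowest by 1.57-fold for Pdx1 (PWK over NOD) to 2.52-fold for Mafa (CAST over NZO). Glis3 and Rfx6 spanned 2.05-fold each and Nkx2-2 2.04-fold, all with NOD lowest.

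**Figure D2:**
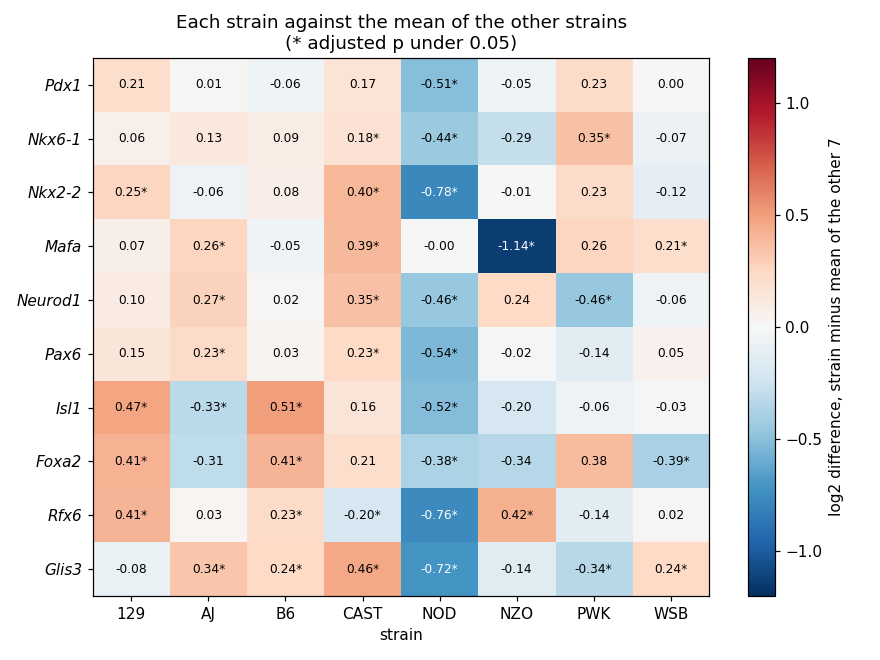
Log2 difference of each strain from the mean of the other 7 strains (colour and printed value) for the 10 factors (y axis) and 8 strains (x axis), with an asterisk at an adjusted p under 0.05. The NOD column is below 0 for 9 factors with Mafa printed as -0.00, and the largest single difference is Mafa in NZO at -1.14.

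In NOD, the non-obese diabetic strain that develops autoimmune infiltration of its islets, 9 of the 10 members were lower than the mean of the other strains. Of all tested genes 29.5% were lower in this contrast, and the members' median log2 difference was -0.52 against 0.03 over all genes. Nkx2-2, Pax6 and Rfx6 were also lower in NOD than in each of the other 7 strains, as were 5.04% of all genes.

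Nkx2-2 ranged in NOD from 1029 to 2642 normalized counts (median 1955). The other 81 libraries started at 2119, and 7 of the 10 NOD libraries lay below all of them. The log2 difference was -0.78 ± 0.08 (SE), with an adjusted p of 1.32e-13 in edgeR's quasi-likelihood test. Rfx6 ranged from 816 to 2540 (median 1954), with 4 NOD libraries below every other library, and differed by -0.76 ± 0.10 (adjusted p = 1.19e-10, edgeR). Glis3 ranged from 682 to 3045 (median 1819), with 4 NOD libraries below all others, and differed by -0.72 ± 0.11 (adjusted p = 9.30e-09, edgeR). For Pax6 the range was 2412 to 9405 (median 6206), and 5 libraries lay below all others while the highest NOD library exceeded 61 of the other strains' libraries. The Pax6 difference was -0.54 ± 0.08 (adjusted p = 1.30e-08, edgeR).

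Isl1 (-0.52), Pdx1 (-0.51), Neurod1 (-0.46) and Nkx6-1 (-0.44) were lower by similar amounts, and 2 or 3 NOD libraries of each lay below all others. Foxa2 (-0.38) was the weakest of the 9 (adjusted p = 0.0479, edgeR). Its call was lost without NZO library 1 or 3 or without PWK library 1, 2 or 4 (libraries numbered in the order in which values are listed, 5 of 9 such fits, adjusted p up to 0.0598, edgeR), and without the 12 libraries of opposite sex counts it was -0.21 (adjusted p = 0.36, edgeR). Mafa, which ranged from 4589 to 14277 in NOD (median 10203) and overlapped the other strains, differed by -0.0027 with a 95% interval of -0.21 to 0.21 (adjusted p = 0.984, edgeR). The mean of the other strains includes NZO, itself low for Mafa (-1.14). All 10 members, Mafa included, were lower in NOD than in CAST, whereas Mafa in NOD did not differ from 129 (adjusted p = 0.695, edgeR) or B6 (0.79). NOD libraries 7 and 10, at 4589 and 5435, were below 7070, the lowest Mafa library outside NOD and NZO.

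Markers of other cells moved with the NOD group. The 11 tested genes of a 12-gene immune list (Ptprc, Cd3g, Cd79a and others) were all higher in NOD, with a median log2 difference of 5.28, and so were 5 of 5 macrophage, 5 of 5 stroma and 10 of 10 acinar markers. Summed TPM of the immune list was 24.02 to 2391 in NOD and 8.71 to 145 in the libraries of the other strains. No marker of this list was at 0 in any NOD library, whereas Cd3e, a defining T cell gene, was at 0 in 6 of 18 B6 libraries. Of 10 pan-endocrine granule genes (Chga, Chgb and others) 9 were lower in NOD, with a median of -0.40.

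Within NOD the members' summed level was lowest in the libraries with the most TPM of immune genes. The NOD libraries with the lowest immune sums, at 24.02 and 54.8 TPM, had member sums of 55386 and 55922 normalized counts. The libraries with the highest, at 1339 and 2391 TPM, had 23152 and 17845. Per 1000 normalized counts of the pan-endocrine genes, the members amounted to 100.4 ± 10.9 in NOD (SD, n = 10). This lay within the range of the other strains' means, 64.8 ± 10.6 (NZO) to 105 ± 8.61 (PWK). The pan-endocrine genes themselves differed by strain, with Chga from -1.52 (PWK) to 0.75 (B6) and Chgb from -0.90 (CAST) to 0.80 (NZO).

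When libraries were scaled to the pan-endocrine genes, 0 members were lower in NOD and 6 were higher (Nkx6-1, Mafa, Neurod1, Pax6, Isl1 and Foxa2). Under that scaling 1.76% of all genes were lower and 91.1% higher, and the members' median was 0.21 against 0.87 over all genes. Leaving out the 7 NOD libraries whose immune sum exceeded that of every other strain's library left 2 members lower, Nkx2-2 (-0.50, adjusted p = 0.00131, edgeR) and Rfx6 (-0.47, adjusted p = 0.0133, edgeR). The share of all genes lower in NOD was then 10.7%. With immune and acinar sums as covariates 1 stayed lower, Nkx2-2 (-0.41, adjusted p = 0.0305, edgeR), where 6.69% of all genes were. Leaving out the 10 libraries with over 200000 acinar TPM left all 9 lower (all genes 31.6%), and so did the comparison within library numbers 66 to 100 (27.3%).

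**Figure D3:**
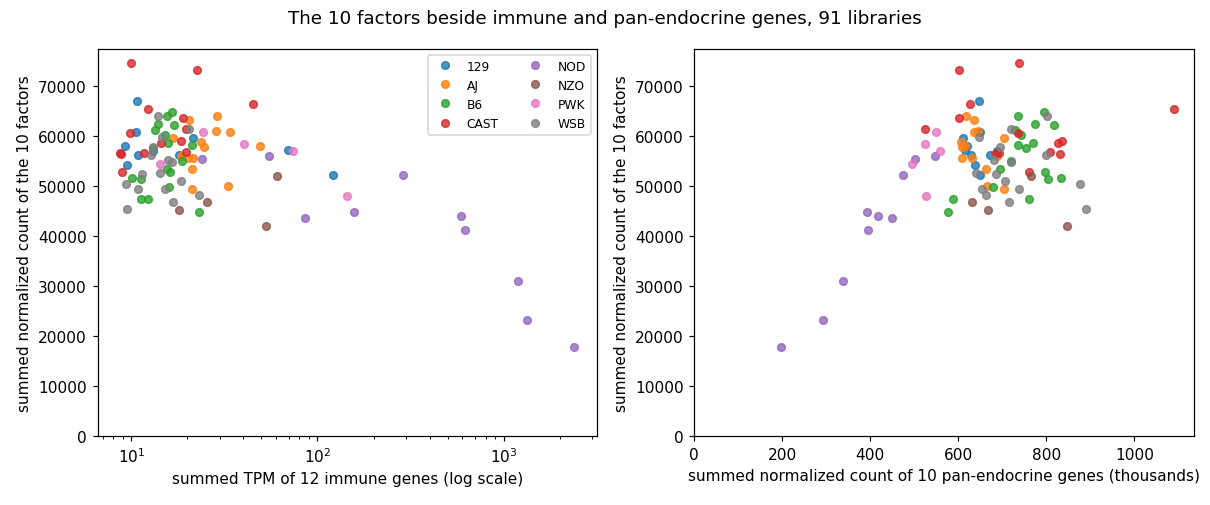
Summed normalized count of the 10 factors in each of the 91 libraries (y axes) against the summed TPM of 12 immune genes (left, log scale) and the summed normalized count of 10 pan-endocrine genes (right, axis in units of 1000), with colours for strains. The NOD library with the highest immune sum, 2391 TPM, has the lowest factor sum, 17845, and the 2 NOD libraries with the lowest immune sums have 55386 and 55922.

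NZO, an obese strain prone to diabetes, differed in 2 members, where 34.2% of all genes were called. Mafa was 6063, 4679, 4155 and 4837 normalized counts in the 4 NZO libraries. Among the 87 libraries of the other strains 2, both NOD, lay below the highest NZO library, and in the strains other than NOD the lowest was 7070. The strain mean of 4934 compared with 10723 for the mean of the other strains, a log2 difference of -1.14 ± 0.18 (adjusted p = 2.00e-07, edgeR). Mafa was lower in NZO than in each of the other 7 strains, as were 1.78% of all genes, and the other strains exceeded it by 1.93-fold (B6) to 2.52-fold (CAST). The difference ranged from -1.40 to -1.06 over every alternative tried, and among library numbers 66 to 100 alone it was -1.09 (adjusted p = 0.00055, edgeR).

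Rfx6 was 4655, 3495, 3112 and 3933 in NZO, inside the range of the other strains, and differed by 0.42 ± 0.14 (adjusted p = 0.00988, edgeR). Without the highest NZO library it was 0.30 and missed the threshold (adjusted p = 0.128, edgeR). Nkx6-1 differed by -0.29 ± 0.14 and did not pass (adjusted p = 0.0968, edgeR). The other 7 members were between -0.34 (Foxa2) and 0.24 (Neurod1) and did not pass. With scaling by pan-endocrine genes 0 members were higher in NZO and 5 were lower, where 8.16% and 31.4% of all genes were. The members' median log2 difference was then -0.36 against -0.25 over all genes. With the libraries of each strain and sex summed 1 was higher and 3 were lower, where 23.9% and 17.9% of all genes were.

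Of 12 beta cell genes that such factors are known to regulate, 5 were lower, where 14.2% of all genes were, and 1 was higher in NZO. The glucose transporter Slc2a2 (-1.03, adjusted p = 1.69e-07, edgeR) and the granule zinc transporter Slc30a8 (-0.99, 1.79e-07) were lower by amounts near that of Mafa. The incretin receptor Glp1r (-0.61), G6pc2 (-0.44) and the prohormone convertase Pcsk1 (-0.41) were also lower, while islet amyloid polypeptide Iapp was higher (0.42). Insulin did not pass (Ins1 0.18, adjusted p = 0.385, and Ins2 0.13, adjusted p = 0.637, edgeR). Among other islet factors, Neurog3 (-2.21), which starts endocrine differentiation, was lower and Hnf4a (0.89) was higher. Alpha cell markers were lower for 6 of 8 genes with a median of -1.25, delta and PP cell markers for 3 of 4, and 5 of 10 pan-endocrine genes were higher. The part of these shifts in the Mafa difference was not tested.

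Isl1, Foxa2 and Rfx6 were higher in 129 and B6. In 129, 4 members were higher where 27.9% of all genes were. Isl1 ranged from 3554 to 4282 (median 4003) and differed by 0.47 ± 0.09 (adjusted p = 5.04e-06, edgeR). Foxa2 ranged from 1629 to 2297 (median 2008) and differed by 0.41 ± 0.16 (adjusted p = 0.0267, edgeR), a call lost without the 12 libraries of opposite sex counts (0.27, adjusted p = 0.456), as was that of Nkx2-2 (0.12, adjusted p = 0.431). Rfx6 ranged from 3317 to 4774 (median 3740) and differed by 0.41 ± 0.09 (adjusted p = 0.000101, edgeR). Nkx2-2 was higher by 0.25, and all of these ranges overlapped those of other strains. On the log2(TPM + 1) scale with limma 9 members, all but Glis3, were higher in 129, where 42.5% of all genes were. The members' median was 0.38 there against 0.18 over all genes. With immune and acinar sums as covariates 1 was higher (Isl1) and 1 lower (Glis3), where 26.2% and 16.5% of all genes were. Markers of other endocrine cells were higher in 129 as well, 7 of 8 for alpha cells (median 1.09) and 4 of 4 for delta and PP cells (median 0.69), and their part in the result was not tested.

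In B6, again 4 members were higher where 25.6% of all genes were. Isl1 ranged from 3123 to 5149 (median 4053), with 6 of the 18 libraries above every library of another strain, and differed by 0.51 ± 0.07 (adjusted p = 2.18e-09, edgeR). Foxa2 ranged from 941 to 2776 (median 2183), with 7 libraries above all others, and differed by 0.41 ± 0.13 (adjusted p = 0.00547, edgeR). Rfx6 (0.23) and Glis3 (0.24) were higher by less and were -0.033 and -0.020 with pan-endocrine scaling. Under that scaling 1 member was higher in B6 (Isl1) and 6 were lower (Pdx1, Nkx6-1, Nkx2-2, Mafa, Neurod1 and Pax6). There 6.45% of all genes were higher and 66.2% lower, and the members' median was -0.17 against -0.28 over all genes. On the log2(TPM + 1) scale with limma 1 was higher, Isl1, where 7.53% of all genes were. The B6 differences of Isl1 and Foxa2 were also called within library numbers 1 to 32 and within 34 to 65.

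CAST, a wild-derived strain, had 6 higher members where 26.7% of all genes were higher, and 1 lower where 31% were. Glis3 ranged from 2760 to 4412 (median 3398) and differed by 0.46 ± 0.09 (adjusted p = 2.93e-06, edgeR). Nkx2-2 ranged from 3499 to 5015 (median 3743), with 3 libraries above all others, and differed by 0.40 ± 0.07 (adjusted p = 3.70e-07, edgeR). Mafa ranged from 7483 to 18142 (median 11237) and differed by 0.39 ± 0.09 (adjusted p = 0.00016, edgeR). Neurod1 (0.35), Pax6 (0.23) and Nkx6-1 (0.18) were higher and Rfx6 (-0.20) was lower. With the libraries of each strain and sex summed the calls of Pax6, Nkx6-1 and Rfx6 were lost, with immune and acinar covariates those of Pax6 and Nkx6-1, and without the libraries of high acinar counts those of Nkx6-1 and Rfx6. The acinar markers were higher in CAST for 10 of 10 genes (median 1.56), and their part in the result was not tested. On the log2(TPM + 1) scale with limma 1 member, Nkx2-2, was higher and Rfx6 lower, where 6.96% and 48.7% of all genes were. The median of all genes moved to -0.18 there. With pan-endocrine scaling 2 members were higher in CAST (Nkx2-2 and Glis3) and 1 lower (Rfx6), where 8.47% and 56.6% of all genes were. The members' median was then -0.0016 against -0.25 over all genes. The call of Nkx6-1 was lost without NZO library 4 or PWK library 3 (adjusted p up to 0.0677, edgeR) and that of Rfx6, narrowly, without NZO library 1.

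In AJ, 4 members were higher and 1 lower, where 24.9% and 32.1% of all genes were. Glis3 (0.34), Neurod1 (0.27), Mafa (0.26) and Pax6 (0.23) were higher. In AJ, B6, CAST and WSB alone Glis3 was 0.021 (adjusted p = 0.833, edgeR), Mafa 0.065 (0.532) and Neurod1 0.15 (0.0691), none past the threshold. Pax6 stayed higher there (0.11, adjusted p = 0.0466, edgeR). Isl1 ranged from 1606 to 3092 (median 2460) and differed by -0.33 ± 0.08 (adjusted p = 0.000405, edgeR), opposite to its direction in B6 and 129. In the same 4 strains alone Isl1 was -0.47 (adjusted p = 7.23e-08, edgeR), but its call was lost on both TPM scales. With the libraries of each strain and sex summed 1 member was higher in AJ (Glis3) and 0 lower, where 14.2% and 16.4% of all genes were. With immune and acinar covariates 0 were higher and 2 lower (Isl1 and Rfx6), where 19.9% and 22.4% of all genes were.

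In WSB, Mafa (0.21) and Glis3 (0.24) were higher and Foxa2 (-0.39) lower, where 26.6% and 29.7% of all genes were higher and lower. Without the 12 libraries of opposite sex counts only Glis3 of these was called, with Mafa at 0.20 (adjusted p = 0.0595, edgeR) and Foxa2 at -0.28 (adjusted p = 0.139, edgeR). The Glis3 and Mafa calls were in turn lost on both TPM scales, where Foxa2 alone was called. They were also lost with immune and acinar covariates, where 0 members were higher and 4 lower (Nkx6-1, Nkx2-2, Neurod1 and Foxa2). Of all genes 26.6% were higher and 25.4% lower in WSB with the covariates. With pan-endocrine scaling 0 members were higher in WSB and 7 were lower (Nkx6-1, Nkx2-2, Neurod1, Pax6, Isl1, Foxa2 and Rfx6). Under that scaling 8.28% of all genes were higher and 59.5% lower, and the members' median was -0.23 against -0.26 over all genes.

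PWK had 1 higher and 2 lower members, where 23.2% and 21.8% of all genes were. Nkx6-1 was 15760, 16339, 12407, 14934 and 15082 in the 5 PWK libraries and differed by 0.35 ± 0.12 (adjusted p = 0.0109, edgeR). Neurod1 was 3722, 4424, 4690, 4515 and 5400, at the low end of the other strains, and differed by -0.46 ± 0.14 (adjusted p = 0.00479, edgeR). Within library numbers 66 to 100 Neurod1 was -0.39 and missed the threshold (adjusted p = 0.115, edgeR). Glis3 differed by -0.34 at the threshold (adjusted p = 0.0481, edgeR). That call was lost on leaving out any 1 of the 5 PWK libraries or NZO library 1, 3 or 4 (adjusted p up to 0.134, edgeR), with either other filter on low counts, without the sex term, with limma-voom, with the covariates and without the libraries of high acinar counts. With pan-endocrine scaling 5 members were higher in PWK (Pdx1, Nkx6-1, Nkx2-2, Mafa and Foxa2) and 0 lower. Under that scaling 46% of all genes were higher and 7.96% lower, and the members' median was 0.39 against 0.29 over all genes. With the libraries of each strain and sex summed 4 were higher (Pdx1, Nkx6-1, Nkx2-2 and Foxa2) and 1 lower (Glis3), where 22.6% and 20.4% of all genes were.

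The mean of the other strains includes NOD, where 9 members were lower. Without NOD, 2 members were higher in 129 (Isl1 and Rfx6, all genes 29.5%) and 2 in B6 (Isl1 and Foxa2, all genes 24.4%), instead of 4 in each. In AJ 4 were higher and 3 lower (Isl1, Foxa2 and Nkx2-2), where 25.2% and 30.3% of all genes were. In WSB 1 was higher (Mafa) and 3 lower (Foxa2, Nkx2-2 and Nkx6-1), where 27.7% and 28.5% of all genes were. In NZO 1 was higher (Rfx6) and 3 lower (Mafa, Nkx6-1 and Isl1), where 24.7% and 16.9% of all genes were. In PWK 1 was higher (Nkx6-1) and 3 lower (Neurod1, Glis3 and Pax6), where 26.2% and 22.6% of all genes were. In CAST 5 were higher and 1 lower, where 26.8% and 28.9% of all genes were.

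The wild-derived strains CAST, PWK and WSB were compared with the mean of the 5 classical strains, a contrast that shares its libraries with those above. The higher members were Mafa (0.40 ± 0.08, adjusted p = 4.95e-06, edgeR), Nkx2-2 (0.24 ± 0.06, 0.000216), Nkx6-1 (0.21 ± 0.06, 0.00333) and Glis3 (0.17 ± 0.07, 0.0419), 4 of 10 where 24.9% of all genes were higher. The Glis3 call was lost without NZO library 2 or 4 or PWK library 1, 2 or 3 (adjusted p up to 0.069, edgeR). Without NOD, one of the classical strains, Glis3 was 0.031 and Nkx2-2 was 0.092, neither past the threshold, while Mafa (0.44) and Nkx6-1 (0.14) were higher and Rfx6 (-0.33) and Neurod1 (-0.18) lower. The mean for Mafa was 11494 normalized counts in the wild-derived strains and 9103 in the classical strains, the latter including NZO. In AJ, B6, CAST and WSB alone only Mafa of these 4 was called (0.17, adjusted p = 0.0354, edgeR), and Nkx6-1 was -0.052 there.

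Between males and females 0 members were called at an adjusted p under 0.05, where 4.01% of all genes were, and 1 had an unadjusted p under 0.05 in edgeR. That member was Glis3, higher in males by 0.15 ± 0.06 (adjusted p = 0.181). Without the 12 libraries of opposite sex counts it was 0.20 ± 0.06 and passed (adjusted p = 0.0156, edgeR). The other 9 members lay between -0.08 (Mafa) and 0.05 (Nkx6-1), each with an SE of 0.05 to 0.11. A sex difference that varied by strain, tested in 82 libraries of the 6 strains other than NZO and PWK, was called for 0 members where 5.9% of all genes were. These libraries included all 12 of opposite sex counts under their labelled sex, and this test was not run without them. Neurod1 came nearest (unadjusted p = 0.00468, adjusted p = 0.0663, edgeR).

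Foxa2 and Pdx1 differed between ranges of library numbers within strains, although the ranges of Pdx1 overlapped in each of 4 strains. In the 62 libraries of AJ, B6, CAST and WSB, 5 members differed between numbers 34 to 65 and numbers 1 to 32 once strain and sex were fitted, where 44.4% of all genes did. Foxa2 was higher in the later range by 0.79 ± 0.09 (1.73-fold, adjusted p = 5.33e-10, edgeR) and Pdx1 by 0.42 ± 0.09 (adjusted p = 5.75e-05). Isl1 was higher by 0.17, and Neurod1 and Glis3 differed by -0.19 and -0.18. Of all genes 28.8% were higher and 15.5% lower in the later range.

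Foxa2 in AJ was 441 to 1350 (median 700) in the 8 earlier libraries and 1413 to 2281 (median 2051) in the 6 later ones, with no overlap. In B6 it was 941 to 1906 in the 8 earlier and 2181 to 2776 in the 10 later libraries, again with no overlap. In CAST the ranges were 1142 to 1971 and 1743 to 2329, and in WSB 672 to 1481 and 1018 to 1929, both overlapping. Foxa2 was lower in AJ than in the other 3 strains within numbers 1 to 32 (-0.72, adjusted p = 0.00064, edgeR) and 0.03 apart within 34 to 65 (adjusted p = 0.876), a change that was not tested itself. Pdx1 in B6 was 2210 to 4039 in the earlier and 3348 to 5141 in the later libraries. The submitters describe several waves of collection, and whether the number ranges match them is not given in the labels.

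**Figure D4:**
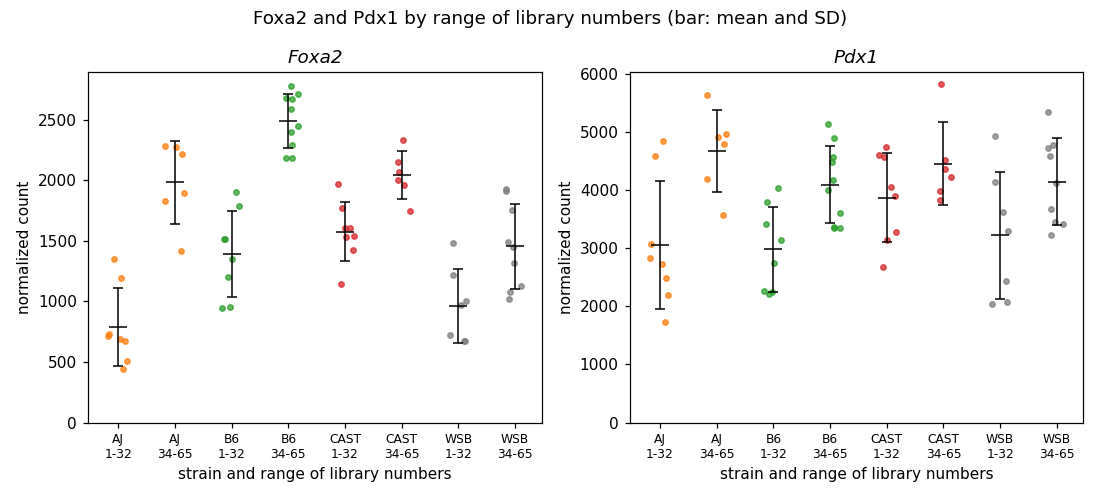
Normalized counts of Foxa2 (left) and Pdx1 (right) on the y axes by strain and range of library numbers (x axes), with points for libraries and bars for mean and SD. For Foxa2 the AJ libraries rise from 441 to 1350 in numbers 1 to 32 to 1413 to 2281 in numbers 34 to 65.

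Across the 91 libraries the levels of the members on the log2(normalized count + 1) scale were positively correlated in 44 of 45 pairs, with Pearson's r from -0.05 to 0.86 and a median of 0.55. These libraries share strains, sequencing depth and tissue composition, so the values are a description. After the means of strains and number ranges were taken out, r ran from 0.18 to 0.86 with a median of 0.59 over the same pairs. Pdx1 and Foxa2 formed the closest pair after that step (r = 0.86, and 0.78 before it), followed by Neurod1 and Pax6 (0.85, and 0.86 before) and by Nkx6-1 and Nkx2-2 (0.83, and 0.82 before). Mafa and Rfx6 were the least alike, with r of -0.05 before and 0.18 after.

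Over all tested genes, the most similar pattern to Pdx1 was that of Mnx1, another homeodomain factor of the beta cell (r = 0.88 over 91 libraries, 0.92 within strains and ranges). Mafa was most like Cdk5r2 (r = 0.75, 0.74 within strains and ranges). The glucose transporter Slc2a2 was the third by r (0.70), but its Spearman's rho was 0.46 and its r within strains 0.56, ranks 102 and 138 among all genes, and NZO was low for both genes. Pax6 and Neurod1 were each other's closest gene over all tested genes (0.86). Glis3 and Pax6 both had the L-type calcium channel gene Cacna1d among their 3 closest genes (0.84 and 0.85). Foxa2 was most like 2 zinc finger genes, Zscan12 (0.88) and Zkscan16 (0.87), whose r within strains and ranges was 0.66 and 0.77. Nkx6-1 was closest to Shc2 (0.83), Nkx2-2 to AC157667.1 (0.86), Isl1 to Cxxc4 (0.82), Rfx6 to Rapgef4 (0.83) and Glis3 to Pitpnm3 (0.86). By r within strains these genes ranked 32, 84, 1, 84 and 15 in that order. Cacna1d ranked 69 for Pax6 and 29 for Glis3 by the same measure.

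The tables also give each gene's transcript length weighted by the abundance of its isoforms, which moves when the estimated mix of isoforms moves. All strains were quantified on mm10, the assembly of B6. The part of this single reference in strain differences of length or level was not tested. Pdx1, Nkx6-1, Mafa and Neurod1 have 1 transcript in the annotation and hence 1 length, while Pax6 has 26, Glis3 10, Isl1 and Rfx6 5 each and Nkx2-2 and Foxa2 4 each. For the 6 members with several transcripts strain differences in length were tested by a permutation test with 100000 resamples, adjusted over the 6. Pax6 averaged 2011 ± 25.1 bases in PWK (SD, n = 5) and 2271 ± 65.99 bases in WSB (n = 16), and its 5 PWK libraries had a median of 2007 bases. Strain explained 67.3% of the variance in Pax6 length, 56.8% for Nkx2-2, 47.5% for Isl1 and 40.5% for Foxa2, each at an adjusted permutation p of 1.5e-05 from the smallest p the resamples can give. Nkx2-2 was shortest in WSB (1288 bases) and longest in B6 (1428 bases), and Isl1 was shortest in PWK (1756) and longest in NOD (1985). Rfx6 (21.2%, adjusted permutation p = 0.00592) and Glis3 (16.1%, 0.0367) varied less by strain.

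An antisense gene overlaps the start of Pax6, namely Pax6os1 at chromosome 2, 105536080 to 105670330 on the minus strand. It averaged 4.93 TPM (NOD) to 13.8 TPM (PWK) by strain and had at most 437 expected counts in a library. The strand setting of the counting is not given in the sources used here, so reads of the pair cannot be told apart. Nkx2-2os, antisense to Nkx2-2, had at most 6 expected counts in a library.

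**Figure D5:**
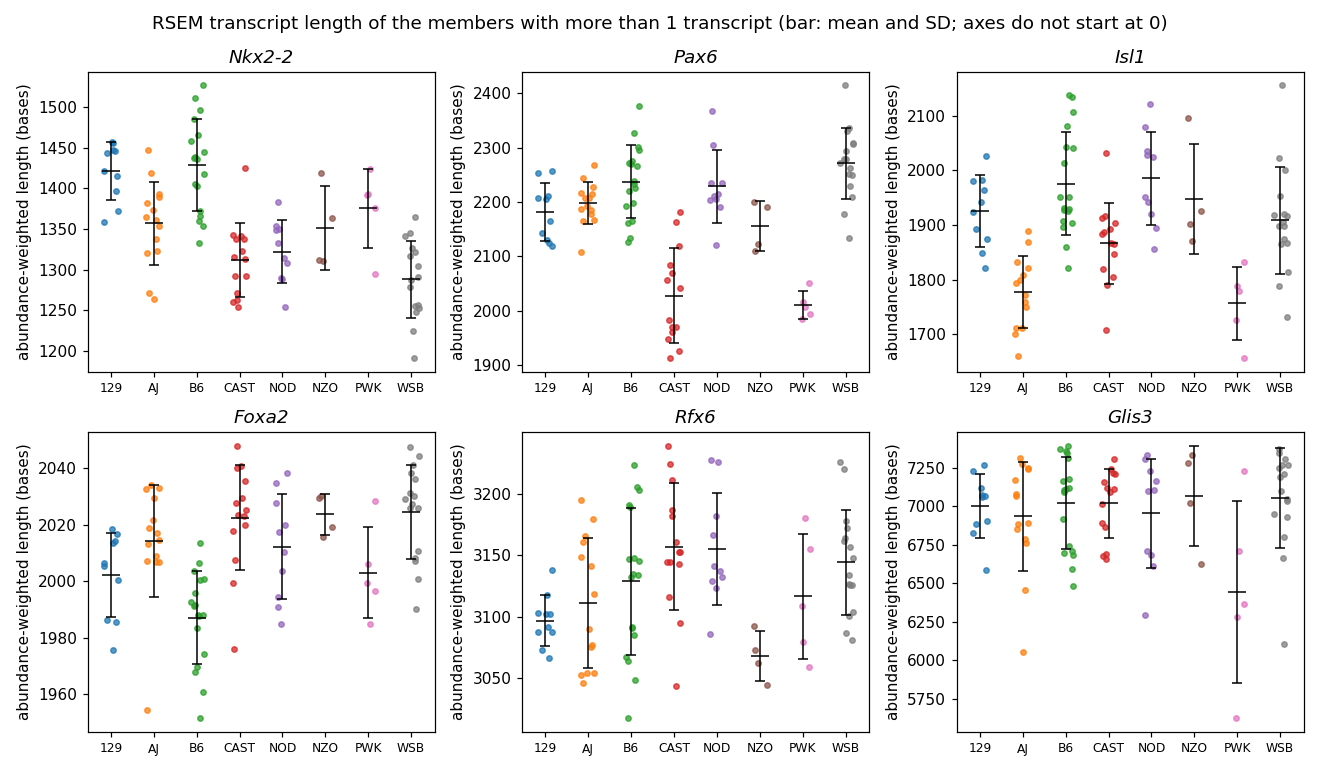
Abundance-weighted transcript length in bases (y axes, not starting at 0) of the 6 factors with more than 1 annotated transcript, by strain (x axes), with points for libraries and bars for mean and SD. Pax6 is shortest in PWK (2011 bases) and CAST and longest in WSB (2271 bases).

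Other factors and target genes were set beside the members. Of 15 tested other factors of the islet, 9 were lower and 2 higher in NOD, where 29.5% and 35.8% of all genes were, with a median of -0.35. Lower genes included the glucose-responsive factor Mlxipl (-0.99), St18 (-0.66), Insm1 (-0.55) and Mnx1 (-0.50), while Foxa1, the close relative of Foxa2, was higher (1.08). Of the 12 target genes 10 were lower in NOD with a median of -0.36 (0.026 over all genes), among them Glp1r (-0.84), Slc30a8 (-0.73), Iapp (-0.63), Ucn3 (-0.48) and Ins2 (-0.34). Immune markers were higher in NOD for 11 of 11 tested genes (median 5.28) and acinar markers for 10 of 10 (median 1.53), and their part in these counts was not tested. In B6 10 of the 12 targets were higher (all genes 25.6%), including Ucn3 (0.45), Abcc8 (0.42) and Slc30a8 (0.39), and in AJ 8 were (24.9%), led by Glp1r (0.63). In WSB 7 targets were higher (26.6%) and 0 lower, in CAST 4 were higher (26.7%) and 3 lower (31%), and in PWK 4 were higher (23.2%) and 4 lower (21.8%). Immune markers were lower for 11 of 11 genes in B6 and for 10 of 11 in AJ and in WSB. The mean of the other strains in the target and marker counts for B6, AJ, WSB, CAST and PWK includes NOD. These counts were not made without NOD. The median of Ptprc was 40.45 TPM in NOD, 4.16 in NZO, 4.53 in PWK and 1.08 (129) to 1.58 (AJ) elsewhere. Of the listed genes Cd3e and Pax4 were not among those tested.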

How the data were processed

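RNA sequencing libraries of whole islets had been quantified with RSEM (mm10, GENCODE vM18), and the authors deposited 1 table per library with expected counts, TPM and abundance-weighted lengths per gene (RSEM version not given in the sources used here). All 91 tables (16 strain and sex groups) were read and grouped by the strain and sex of the labels. Expected counts were rounded to whole numbers. Of 54146 genes, 54079 matched GENCODE M21, 21710 were protein-coding on chromosomes 1 to 19 and X, and 15204 were tested after removal of the 10% least variable and of those above 0 in under 85% of libraries.

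Counts were fitted with edgeR 4.0.16 (R 4.3.3) by quasi-likelihood, with upper-quartile normalization, strain and sex as terms and Benjamini-Hochberg adjustment per contrast at 0.05. Each strain was compared with the mean of the other 7, wild-derived with classical strains, males with females, and all pairs. Interaction used 6 strains. The number range was tested in 4 strains, a test chosen after seeing the data. limma 3.58.1 served the TPM and voom alternatives and DESeq2 1.42.0 another. Correlations used log2(normalized count + 1), lengths a permutation test (scipy 1.17.1). The fit was tested on simulated data with 200 genes changed by 1 on the log2 scale, of which 96% were recovered in the NOD contrast, with 4.95% false among those called, and 88.5% in the test over all strains, with 5.35% false.

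The 10 members and all lists were chosen with earlier results of these data known. All members were described, and the genes named beside them were the 3 with the highest Pearson's r and the members of the lists. SEs and adjusted p-values come from the fit across libraries.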

Additional observations from a re-analysis of the deposited data

Results flagged for a closer look

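In 40 groups of 4 to 10 libraries, the gap of the highest or lowest library to its neighbour was compared with Dixon's critical value, which chance passes in about 1 group in 20. It was passed in 2. Nkx6-1 in 129 was 15764 normalized counts in its highest library (replicate 5), set apart from the other 9. Rfx6 in 129 was 4774 in its highest library (replicate 4), also the highest Rfx6 value of all 91 libraries.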

How the results depend on the processing

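Of the 37 called differences of a member in 1 strain from the mean of the others, TMM normalization kept 36, median-ratio size factors 37, DESeq2 37, limma-voom 36 and fits without the sex term 36 past the threshold in the same direction. Sums of the libraries of each strain and sex kept 27, and the TPM fits 23. Pan-endocrine scaling kept 15 and turned 10, and immune and acinar covariates kept 15. Strain differences of the pan-endocrine genes themselves, such as Chga at -1.52 in PWK and 0.75 in B6, enter that scaling. Settings that select by number range, immune sum or acinar sum were chosen after seeing the data.

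Members with a strain effect were 5 in numbers 1 to 32 alone and 6 in 34 to 65 alone, instead of 10. Pair calls were 75 of 280 with the covariates and 9 at a log2 difference of at least 1, and of 60 pair tests 27 in the 4 strains AJ, B6, CAST and WSB, 29 there with the number range, 23 in numbers 66 to 100, 19 in 1 to 32 and 19 in 34 to 65. Members lower in NOD were 0 with pan-endocrine scaling (all genes 1.76%) and 1 with the covariates (6.69%). They were 2 without the high-immune libraries (10.7%) and 0 at a difference of at least 1. Members higher in CAST were 2 with pan-endocrine scaling (all genes 8.47%) and 1 on either TPM scale (6.96% and 7.23%). They were 2 in numbers 34 to 65 (21.7%) and 0 at a difference of at least 1. Wild-derived calls were 7 without the libraries of opposite sex counts, 2 with the covariates, 2 in the 4 strains with or without the range, 0 in numbers 1 to 32 and 0 at a difference of at least 1, and sex calls were 1 without the libraries of opposite sex counts.

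With pan-endocrine scaling the log2 difference in NOD was 0.17 for Pax6, 0.23 for Pdx1, 0.25 for Neurod1, 0.26 for Nkx6-1, 0.34 for Foxa2 and 0.20 for Isl1, that in B6 -0.033 for Rfx6 and -0.020 for Glis3, that in CAST -0.038 for Nkx6-1 and that in WSB -0.023 for Mafa. Neurod1 in NOD was 0.15 with the covariates and 0.087 without the high-immune libraries. Nkx6-1 in CAST was -0.021 on both TPM scales. In the 4 strains alone Glis3 was -0.091 in B6 and -0.096 in WSB and Nkx6-1 -0.052 in wild-derived strains, and with the range Glis3 was -0.00041 in AJ, -0.075 in B6 and -0.080 in WSB and Nkx6-1 -0.053. In numbers 1 to 32 Glis3 was -0.091 in B6, -0.068 in WSB and -0.0033 in wild-derived strains and Nkx6-1 -0.078. In numbers 34 to 65 Mafa was -0.0020 in AJ and -0.046 in WSB, Glis3 -0.13 in AJ, -0.057 in B6 and -0.086 in WSB, Pax6 -0.054 in CAST and Nkx6-1 -0.037 in wild-derived strains. In numbers 66 to 100 Glis3 was -0.021 in wild-derived strains. The cause of these changes was not tested. Leaving out each NZO or PWK library in turn moved Mafa in NZO between -1.24 and -1.06. NZO and PWK, with 4 and 5 libraries, were measured less precisely than the other strains.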
